A study of Citrullus lanatus with 30 samples.

Results

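Rind libraries labelled R2_RF and R4_RF were compared, both taken at 30 DAP from watermelon fruit (Citrullus lanatus, cultivar 97103). They are 4 of the 30 libraries of the series, 2 per group, chosen by their titles and by their shared age. DAP is commonly read as days after pollination, and the labels do not spell out what R2 and R4 stand for. Flesh of 30 DAP (group RF, 3 libraries, same cultivar) served as the point beside them against which each changed locus was placed. Rind R4 of 20 DAP (R4_CT, 2 libraries), Mock flesh of 20 DAP (3 libraries, labelled wild type, with no cultivar given) and flesh of 0, 5, 10, 20 and 30 DAP were used to describe levels outside the comparison. The series also holds flesh of 1 DAP and 5_Aza flesh, not analysed here. The source given for all 6 rind libraries is rind, whereas their tissue is given as flesh. They were taken as rind, and the files name no gene by which that could be checked. The labels do not say whether libraries came from separate fruits, so p-values measure the spread between libraries, which may be technical.

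The rind is the firm outer part of the fruit, covered by a waxy epidermis and built of small, thick-walled, often green cells. The flesh inside it softens on ripening and gathers sugars and, in red-fleshed cultivars, the carotenoid lycopene. Between them lies a zone in which texture, colour and sweetness change gradually from outside to inside. The deposited values are FPKM, fragments scaled by the length of the locus and by the size of the library, for 22596 loci named only by position on the WM97pbV1 sequences (11 chromosomes and 23 scaffolds). A locus is written here as its chromosome and the span it covers. The products of the loci, and whether a position is exonic, intronic or in a UTR, were not analysed here.

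Summed FPKM lay between 868774 and 880778 in the R2 and R4 libraries of 30 DAP, and 15465 to 15605 loci reached 1 FPKM in each. The files hold no read totals, so values carry no counting interval. Among loci at 10 FPKM or above, the coefficient of variation between replicates had a median of 3.62% in R2, 3.37% in R4 and 3.40% in RF flesh. Across the 22596 loci, which are not independent replicates, log2(FPKM + 1) correlated at 0.997 within either rind group and at 0.934 to 0.936 between R2 and R4. R2 libraries correlated with RF flesh at 0.845 to 0.846 and R4 libraries at 0.924 to 0.925. R2 libraries were nearer to rind R4 of 20 DAP (0.951 to 0.952) than to R4 of their own age.

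At 30 DAP, 1575 loci were at least 2-fold higher in R2 and 1871 at least 2-fold higher in R4. These are 9.29% and 11.0% of the 16945 loci tested, 20.3% in all (limma on log2(FPKM + 1), adjusted p under 0.05). In every one of them the 2 libraries of one group lay above both libraries of the other. A call of this size nearly requires that with 2 close libraries a group, so it is no separate support. Without the 2-fold limit, 5160 loci (30.5%) were higher in R2 and 6259 (36.9%) in R4, or 67.4% in all. After median-of-ratios scaling the 2-fold counts were 1703 higher in R2 and 1652 higher in R4, so which group held more raised loci rests on the scaling. As in any bulk sample, fewer cells of a type and less RNA per cell cannot be told apart.

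The largest differences were on the R4 side. Among calls of at least 16-fold on the FPKM + 1 scale, 25 loci were higher in R2 and 88 higher in R4, and at 64-fold the counts were 0 and 16. With a pseudocount of 0.1 the 16-fold counts were 108 higher in R2 and 186 higher in R4. Loci under 1 FPKM in both libraries of one group and at 10 FPKM or more in both of the other numbered 27 with R2 on the high side and 67 with R4 on the high side. At 100 FPKM or more these became 0 and 5. The low group was listed at 0 in both libraries for 29 loci higher in R2 and for 45 higher in R4.

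**Figure D1:**
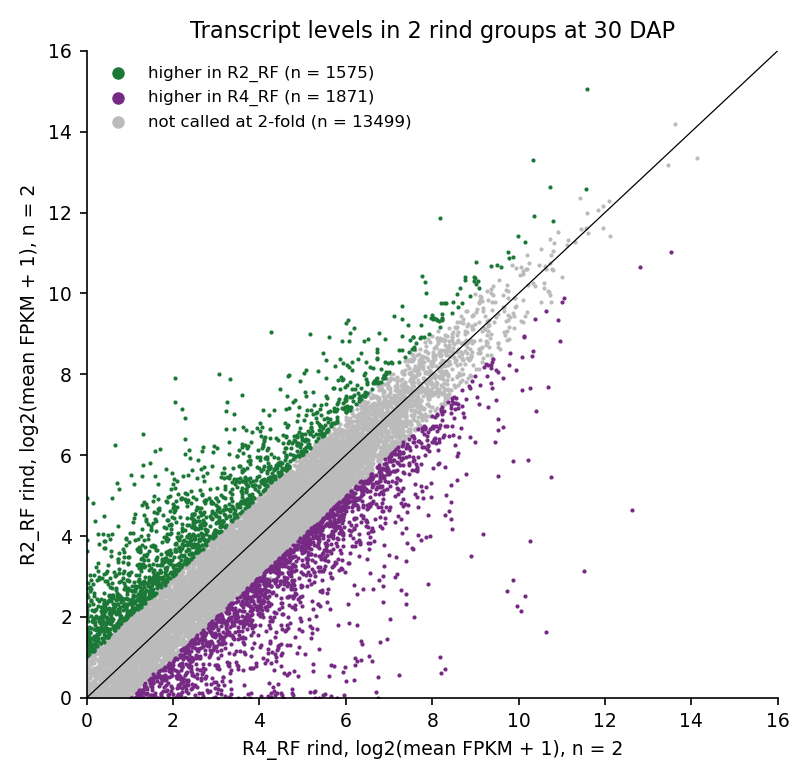
Mean level of each tested locus in R2_RF (vertical axis) and R4_RF rind (horizontal axis), both as log2(FPKM + 1) with n = 2, and the line of equality. Green points are the 1575 loci called at least 2-fold higher in R2 and purple points the 1871 called higher in R4, which include the points farthest from the line.

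The locus furthest on the R4 side was chr7:3768191-3777136, which spans 8946 bp. It had 1.87 and 2.31 FPKM in R2, against 1587 and 1588 FPKM in R4, and 2821, 2796 and 2772 FPKM in RF flesh. R2 was nearly silent there, while R4 was within 2-fold of flesh (log2 fold change of R2 against R4 with its SE, here and for every later locus, -9.01 ± 0.07, limma adjusted p = 2.08e-15). At chr5:7789664-7791009 the values were 7.63 and 8.07 FPKM in R2, against 2884 and 2939.5 FPKM in R4 (log2 fold change -8.36 ± 0.06, limma adjusted p = 2.33e-15). RF flesh held 3488, 3627 and 3594 FPKM at that locus. Both loci were lower in rind R4 of 20 DAP than in R4 of 30 DAP, with 631 and 655 FPKM at the first and 766 and 838 FPKM at the second.

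On the R2 side the largest difference was at chr1:525449-526327, with 252 and 229.9 FPKM in R2, against 2.65 and 3.57 FPKM in R4 (log2 fold change 5.89 ± 0.12, limma adjusted p = 5.55e-12). RF flesh stood between the rinds and apart from both, at 11.3, 11.8 and 11.8 FPKM. Mock flesh of 20 DAP was higher, at 79.4 ± 1.98 FPKM (SD, n = 3, as for all later means of RF, Mock or CT flesh). Flesh of 20 DAP from the stage series (group CT) held 2.07 ± 0.257 FPKM. The next was chr8:21145219-21145797, with 75.8 and 75.5 FPKM in R2, against 0.834 and 0.320 FPKM in R4 (log2 fold change 5.62 ± 0.15, limma adjusted p = 5.29e-11). All 3 RF flesh libraries were under 1 FPKM at this locus. Rind R4 of 20 DAP still held 25.6 and 27.7 FPKM, between R2 and R4 of 30 DAP.

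Most of the most abundant loci were not 2-fold calls. Of the 20 highest loci in R2, 7 were higher in R2 and 13 were no 2-fold call, and of the 20 highest in R4, 2 were higher in R2, 4 higher in R4 and 14 no 2-fold call. The rinds shared 14 of these 20 loci. Among the calls, the highest in R2 was chr6:7824799-7825077, a locus of 279 bp with 33931 and 34620.4 FPKM in R2, against 3201 and 2962 FPKM in R4 (log2 fold change 3.48 ± 0.07, limma adjusted p = 9.22e-12). It formed a staircase, since RF flesh had 48.3, 48 and 51.2 FPKM and no 2 of the 3 groups overlapped. The second, chr2:2327638-2328166, had 10288 and 9814 FPKM in R2, against 1295 and 1303 FPKM in R4, and 301, 281 and 274 FPKM in RF flesh. Its order was the same (R2 against R4, log2 fold change 2.95 ± 0.07, limma adjusted p = 2.80e-11). Higher in R4 was chr9:9611770-9612140, with 2111 and 2038 FPKM in R2, against 11809 and 11819 FPKM in R4 (log2 fold change -2.51 ± 0.09, limma adjusted p = 6.84e-10). Here R4 stood above flesh as well, where RF had 2542, 2437 and 2409 FPKM. R4 was also the highest at chr10:33764629-33765276, with 1682 and 1530.4 FPKM in R2, against 7330.4 and 7135 FPKM in R4, and 3165 ± 133 FPKM in RF flesh. Flesh lay between the rinds there, just short of a 2-fold step from R2 (R2 against flesh, log2 fold change -0.98, limma adjusted p = 2.72e-06).

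**Figure D2:**
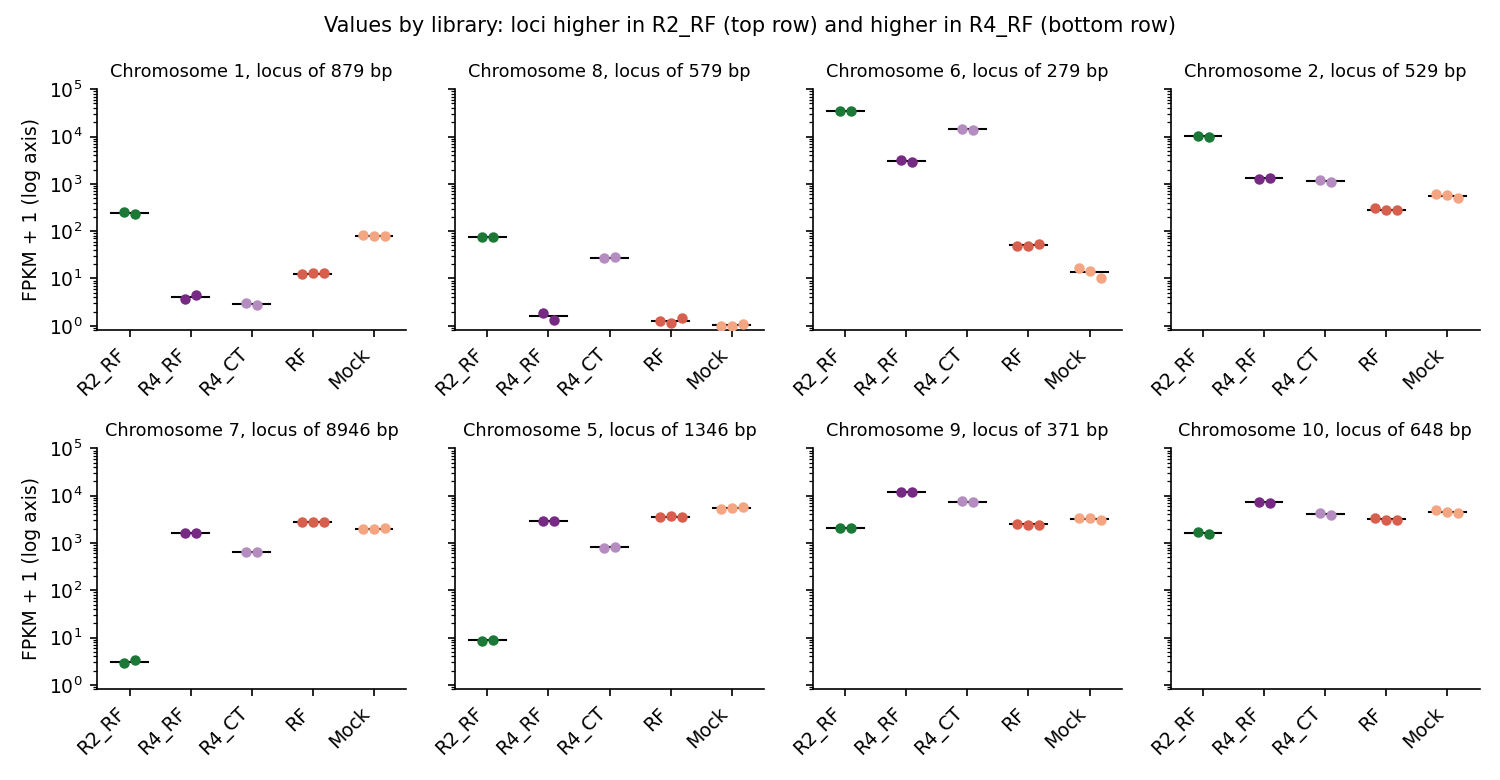
FPKM + 1 on a log axis in each library of R2_RF, R4_RF, R4_CT, RF flesh and Mock flesh (points) with group means (lines), at the largest changes and the most abundant changed loci of each direction. In the top row R2_RF is the highest group at all 4 loci, and in the bottom row it lies lowest at all 4.

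The 2-fold calls held different shares of summed FPKM in the 2 rinds. FPKM is scaled by locus length, so these are not shares of RNA mass. The 1575 loci higher in R2 held 22.55% and 22.38% of summed FPKM in the R2 libraries, against 6.38% and 6.35% in R4 and 3.42% to 3.43% in RF flesh. The 1871 loci higher in R4 held 5.47% and 5.41% in R2, against 21.1% and 20.8% in R4 and 23.74% to 23.75% in RF flesh. Rind R4 of 20 DAP had 12.1% and 11.8% in the first set and 15.1% and 14.7% in the second. The sets were chosen by the levels in R2 and R4 of 30 DAP, so their shares there are a description. A few loci weigh heavily in the first set. In R2, chr6:7824799-7825077 and chr2:2327638-2328166 averaged 34276 and 10051 FPKM, of library sums of 872170 and 880778 FPKM.

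Flesh was then placed on each changed locus with the same fit. A step to flesh counted as a separation where it was at least 2-fold with a limma adjusted p under 0.05. Flesh was on the R4 side, either not separated from R4 or beyond it, at 1387 of the 1575 loci higher in R2 (88.1%) and at 1213 of the 1871 higher in R4 (64.8%). For comparison, over all 16945 tested loci 18.1% were at least 2-fold higher and 6.06% at least 2-fold lower in R4 than in flesh. In R2 against flesh these shares were 24.4% and 15.5%. The same shares for R4 with no fold limit were 45.2% and 27.9% (73.1% of loci in all, against 24.2% at 2-fold or more), and for R2 46.0% and 36.6% (82.6% in all, against 39.8% at 2-fold or more). These contrasts share the R2, R4 and flesh libraries. Whether the classes differ between the directions was not tested. Every locus named here passed the test of R2 against R4, with a limma adjusted p of at most 4.78e-05.

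R4 was the middle group, with flesh beyond it, at 521 of the loci higher in R2 (33.1%) and at 261 of those higher in R4 (13.9%). By the order of means alone, R4 was in the middle at 77.2% of the loci higher in R2 and 48.4% of those higher in R4. Flesh was in the middle by that measure at 20.4% and 40.5%. Of all tested loci with a higher mean in R2 than in R4, R4 was in the middle at 5146, flesh at 1366 and R2 at 1355. Of all tested loci with a higher mean in R4 than in R2, R4 was in the middle at 4166, flesh at 2121 and R2 at 2791. R4 in the middle was thus the most frequent order over all tested loci too. Its share among the 2-fold loci higher in R4 was close to that background. Descending staircases from R2 to flesh had median levels of 40.4 FPKM in R2, 10.9 FPKM in R4 and 1.46 FPKM in flesh. Ascending ones had 2.70 FPKM in R2, 16.5 FPKM in R4 and 48.2 FPKM in flesh. At chr1:12157888-12160086 the level was 160.1 and 158 FPKM in R2, against 3.61 and 2.59 FPKM in R4 and at most 0.197 FPKM in RF flesh. At chr2:5602271-5602603 it was 532 and 517 FPKM in R2, against 18.2 and 18.4 FPKM in R4, and 0, 0.236 and 0.248 FPKM in RF flesh. Both are graded downward with no overlap between groups (R2 against R4, log2 fold changes of 5.30 and 4.77, limma adjusted p = 4.36e-11 and 8.41e-08).

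Ascending staircases had the reverse order. The locus chr6:4794949-4796297 had 4.50 and 5.02 FPKM in R2, against 1109 and 1176 FPKM in R4, and 2810.2, 2709 and 2681 FPKM in RF flesh (R2 against R4, log2 fold change -7.63 ± 0.09, limma adjusted p = 8.69e-14). At chr5:17347413-17348877 R2 had 0.224 and 0 FPKM, against 98.0 and 108 FPKM in R4, and 435, 397 and 420.1 FPKM in RF flesh (log2 fold change -6.55 ± 0.14, limma adjusted p = 1.78e-11). R4 of 20 DAP stood at 5.92 and 7.61 FPKM at this second locus, above R2 and below R4 of 30 DAP.

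Flesh was not separated from R4 at 866 loci higher in R2 (55.0%) and at 952 higher in R4 (50.9%). This was the largest class in both directions as reported, but flesh beyond R4 held more of the loci higher in R2 with a pseudocount of 0.1 (880 against 822). Without the 2-fold limit on steps to flesh it held more in both directions (967 against 379 for R2, and 740 against 323 for R4). Median levels among the first were 10.2 FPKM in R2, 1.84 FPKM in R4 and 1.23 FPKM in flesh, and among the second 7.55 FPKM in R2, 31.3 FPKM in R4 and 36.4 FPKM in flesh. At chr3:14069573-14071167 R2 had 139 and 140.4 FPKM, against 4.14 and 3.03 FPKM in R4, and 1.83 ± 0.0365 FPKM in RF flesh. At chr10:27390513-27391946 R2 had 246 and 266 FPKM, against 7.75 and 6.90 FPKM in R4, and 4.29 ± 0.528 FPKM in RF flesh. Both R2 libraries stood far above R4 and RF flesh (log2 fold change 4.95 at either locus, limma adjusted p = 2.32e-11 and 5.28e-12). R4 and flesh stood above R2 at chr10:21559312-21559608, with 24.7 and 23.5 FPKM in R2, against 7045 and 5507 FPKM in R4, and 9372, 9502 and 9779 FPKM in RF flesh (log2 fold change -7.95 ± 0.21, limma adjusted p = 4.71e-10). R2 was likewise lowest at chr9:33130627-33133472, where R4 stood above flesh, with 3.59 and 3.28 FPKM in R2, against 1084 and 1044 FPKM in R4, and 602 ± 11.4 FPKM in RF flesh.

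**Figure D3:**
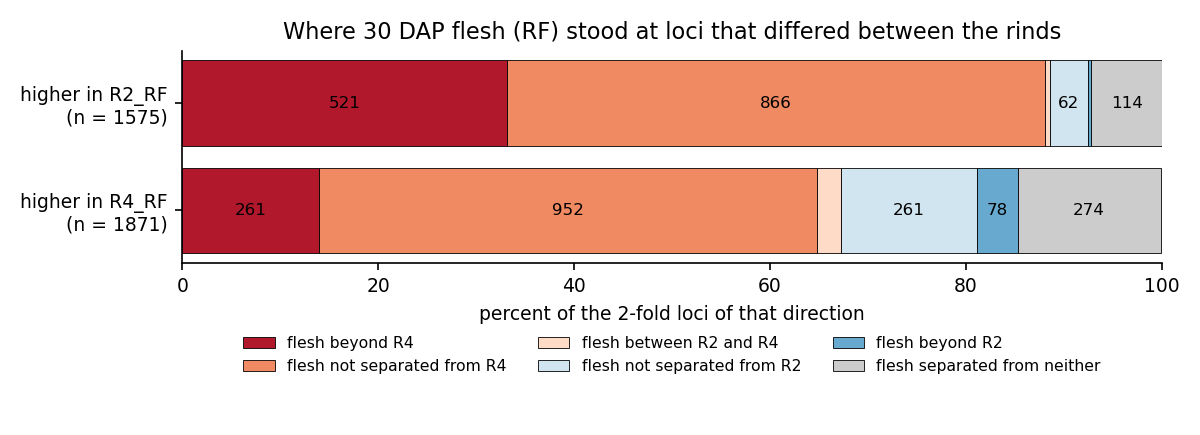
Share of the 2-fold loci of each direction (horizontal axis, percent) by where RF flesh stood, with the number of loci in the wider segments. Segments with flesh on the R4 side make up 88.1% of the loci higher in R2_RF and 64.8% of those higher in R4_RF.

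Loci at which R4 was the extreme group were more numerous where R4 was high. Over all tested loci, too, R4 was more often at least 2-fold above flesh than below it (18.1% against 6.06%). Flesh was not separated from R2 at 261 of the loci higher in R4 (13.9%), and lay below both rinds at a further 78 (4.17%). One example is chr3:3500167-3501425, with 0.194 and 0.205 FPKM in R2, against 19.1 and 18.8 FPKM in R4, and 1.16 ± 0.0745 FPKM in RF flesh (R2 against R4, log2 fold change -4.06 ± 0.13, limma adjusted p = 2.61e-10). Every RF library lay above both R2 libraries there (R2 against flesh, log2 fold change -0.85, limma adjusted p = 3.96e-05). That step missed the 2-fold limit only on the FPKM + 1 scale, which compresses low values. At chr5:2568082-2573151 R2 had 0.843 and 0.227 FPKM, against 24.8 and 24.3 FPKM in R4, and 1.65 ± 0.876 FPKM in RF flesh. Mock flesh did not follow RF at this locus and held 58.4 ± 1.68 FPKM, whereas CT flesh, also of 20 DAP, held 1.73 ± 1.10 FPKM. Below both rinds stood RF flesh at chr9:32289531-32291626, with 9.66 and 9.92 FPKM in R2, against 89.6 and 88.9 FPKM in R4, and 1.87 ± 0.178 FPKM in RF flesh. At chr4:12225007-12225763 R2 had 42.9 and 48.5 FPKM, against 422 and 453 FPKM in R4, and 1.92 ± 0.230 FPKM in RF flesh, while Mock flesh held 794 ± 20.1 FPKM. CT flesh of 20 DAP held 4.93 ± 1.71 FPKM at that locus, so Mock stood apart from stage flesh of its own age. What sets Mock apart was not tested.

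The mirror classes were small. Flesh was not separated from R2 at 62 loci higher in R2 (3.94%) and beyond R2 at 5. With Mock as the flesh the gap between directions was smaller. Flesh was then not separated from R2 at 192 loci higher in R4 and 99 higher in R2, and beyond R2 at 39 and 20. After median-of-ratios scaling these counts were 184 and 70, and 68 and 7. At chr3:5516681-5518084 R2 had 20.8 and 21.0 FPKM, against 0.997 and 1.28 FPKM in R4, and 16.8 ± 0.677 FPKM in RF flesh, so R4 was low while R2 and flesh lay within 2-fold of each other. The locus chr6:26539192-26540035 had 23.9 and 19.9 FPKM in R2, against 1.59 and 1.44 FPKM in R4, and 30.1 ± 1.09 FPKM in RF flesh. Mock flesh was low at both, with 3.61 ± 0.525 and 2.56 ± 0.699 FPKM. Beyond R2, RF flesh held 57.5 ± 1.13 FPKM at chr9:3750087-3751010, with 11.8 and 10.4 FPKM in R2, against 4.98 and 4.69 FPKM in R4.

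Flesh lay between the rinds and was separated from both at 7 loci higher in R2 and 45 higher in R4. This class needs 2 steps of at least 2-fold in the same direction, so R2 and R4 must differ at least 4-fold. Only 394 loci higher in R2 and 491 higher in R4 did, so the class is kept small in part by its rule. At chr5:17111989-17113261 the values were 0.669 and 0.283 FPKM in R2, against 155 and 144 FPKM in R4, and 31.4, 27.0 and 27.3 FPKM in RF flesh. At chr7:3720118-3724684 R2 was under 0.1 FPKM in both libraries, against 61.9 and 60.9 FPKM in R4, and RF flesh held 3.80 ± 1.14 FPKM. With R2 on top, chr6:7869239-7869505 had 96.4 and 85.8 FPKM in R2, against 1.31 and 1.60 FPKM in R4, and 3.62, 7.33 and 5.83 FPKM in RF flesh. At chr7:30636131-30638394 R2 had 40.4 and 42.1 FPKM, against 3.83 and 2.28 FPKM in R4, and 7.51 ± 1.10 FPKM in RF flesh. The remaining 114 loci higher in R2 and 274 higher in R4 had no step to flesh that met both the 2-fold limit and the test. Their median log2 fold changes of R2 against R4 were 1.18 and -1.16. Such small differences follow largely from the class rule, since 2 steps each under 2-fold span less than 4-fold. Among those higher in R2 was chr6:7535796-7539335, with 102 and 104 FPKM in R2, against 35.2 and 35.5 FPKM in R4, and 64.1 ± 0.832 FPKM in RF flesh, and likewise chr7:30102496-30104842, with 11.8 and 12.1 FPKM in R2, against 3.29 and 3.95 FPKM in R4, and 7.20 ± 0.505 FPKM in RF flesh. Among those higher in R4 were chr10:22357033-22367258, with 3.39 and 3.01 FPKM in R2, against 15.5 and 13.9 FPKM in R4, and chr10:17913850-17917381, with 51.7 and 55.5 FPKM in R2, against 196 and 199 FPKM in R4. RF flesh had 7.29 ± 0.691 and 107 ± 2.34 FPKM at that pair, and at all 4 loci every RF library lay between the rinds. The class rule nearly requires that, since flesh outside rinds that differ by over 2-fold would make a step over 2-fold. Mock and CT flesh were not placed by that rule. Mock flesh had 17.2 ± 1.39 FPKM at chr6:7535796-7539335, below both rinds, and 31.2 ± 2.17 FPKM at chr10:22357033-22367258, above both. CT flesh of the same age had 113 ± 9.81 and 20.9 ± 0.207 FPKM at the same loci in turn, with means above both rinds.

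The placing of flesh crossed a difference in number format, since 16355 to 17241 values per library carried 6 decimals in rind and Mock, against 2386 to 2462 in RF flesh. With Mock as the flesh, which shares the format of the rind but is 20 DAP, R4 was in the middle at 435 loci higher in R2 and at 411 higher in R4. With a pseudocount of 0.1 and RF as the flesh, 413 loci higher in R4 had R4 in the middle. With Mock, flesh was on the R4 side at 83.6% and 71.5% of the loci higher in R2 and in R4. After median-of-ratios scaling, R4 minus RF flesh had a median log2 difference over all loci of 0.04, against 0.16 as deposited. With it, flesh was on the R4 side at 86.3% of the loci higher in R2 and 68.8% of those higher in R4. Without the 2-fold limit on steps to flesh, fewer loci of either direction had flesh on the R4 side. Of those higher in R4, flesh was then beyond R4 at 740, not separated from R4 at 323 and between the rinds at 516. Of those higher in R2 the counts were 967, 379 and 173 in the same order.

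Levels in libraries outside the comparison also set the 2 groups of loci apart. Loci higher in R2 had a median of 17.9 FPKM in R2, against 4.19 FPKM in R4, and 10.9 FPKM in rind R4 of 20 DAP. Over flesh development (0, 5, 10, 20 and 30 DAP in turn) their median was 7.83, 6.48, 5.29, 2.0 and 1.81 FPKM. Loci higher in R4 had a median of 6.50 FPKM in R2, against 25.6 FPKM in R4, and 18.6 FPKM in rind R4 of 20 DAP. Their median in flesh was 14.5, 16.6, 19.3, 22.8 and 24.4 FPKM at the same 5 ages. All tested loci had medians of 13.9, 14.4, 12.9, 10.7 and 11.4 FPKM. Medians of single libraries within a group lay no further apart than 22.4 and 23.8 FPKM, in 20 DAP flesh at the loci higher in R4.

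**Figure D4:**
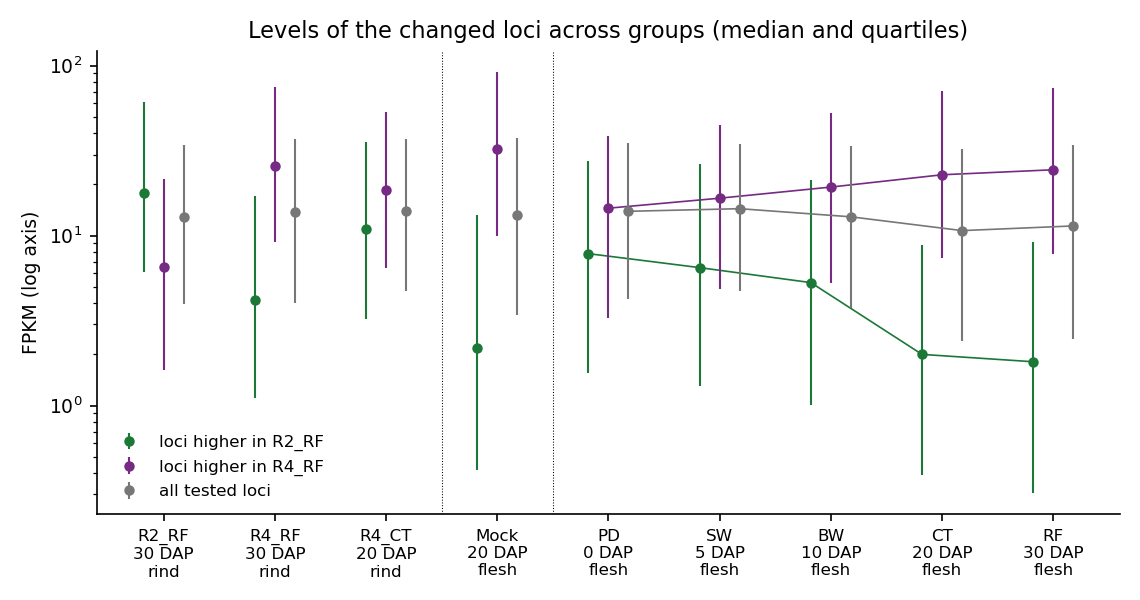
Median FPKM with quartiles (log axis) of the loci higher in R2_RF, of those higher in R4_RF and of all tested loci, in each rind and flesh group. In flesh the median of the first set ends at 1.81 FPKM at 30 DAP and that of the second at 24.4 FPKM.

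The flesh stage of highest level followed the same division. Of the 1384 loci higher in R2 that reached 1 FPKM in some flesh stage, 43.2%, 22.3%, 18.1%, 3.54% and 12.9% had their highest mean in flesh of 0, 5, 10, 20 and 30 DAP, listed by age. Of 1823 such loci higher in R4, the shares in that order of age were 17.5%, 13.7%, 11.0%, 21.7% and 36.1%. Over the 15990 tested loci that reached 1 FPKM the shares were 35.2%, 19.9%, 10.6%, 9.69% and 24.6%. No test was run on these shares, since loci are not replicates of a stage.

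Length was not used to choose the loci and also differed. The median genomic span was 1818 bp for loci higher in R2, 2531 bp for loci higher in R4 and 2661 bp for all tested loci. Of tested loci up to 500 bp, 13.1% were higher in R2 and 14.0% higher in R4. Of those from 500 to 1000 bp, 14.5% were higher in R2 and 11.4% higher in R4. From 1000 to 2000 bp the shares were 12.3% and 10.3%, and from 2000 to 4000 bp they were 9.17% and 12.3%. Of those from 4000 to 8000 bp, 5.81% were higher in R2 and 11.0% higher in R4, and above 8000 bp the shares were 2.88% and 5.98%. The share higher in R4 thus did not fall steadily with length. The spans include any introns, and whether length itself affects the FPKM or the calls was not tested. Shares by chromosome varied little, from 8.16% on chromosome 11 to 10.3% on chromosome 7 for loci higher in R2, and from 9.36% on chromosome 8 to 12.3% on chromosome 9 for loci higher in R4.

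**Figure D5:**
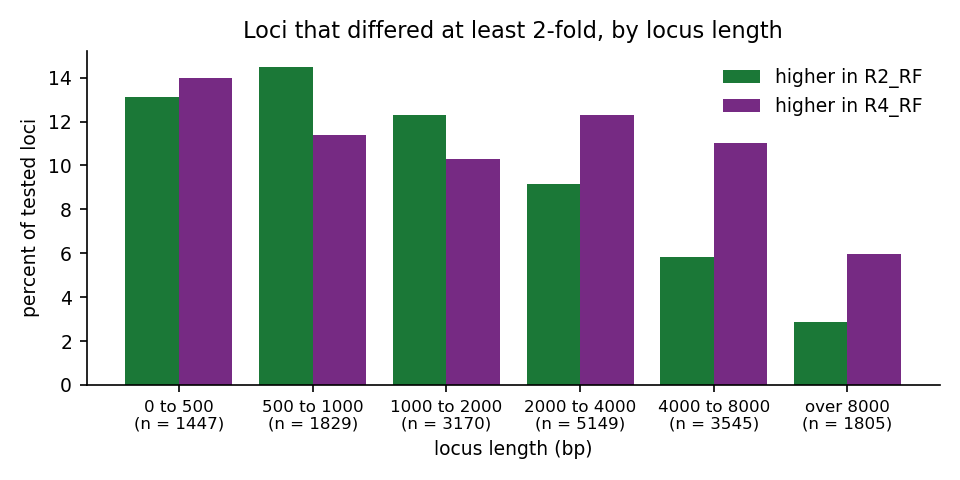
Percent of tested loci that were at least 2-fold higher in R2_RF (green) or in R4_RF (purple), by genomic length of the locus in bp. The share higher in R2_RF is 14.5% from 500 to 1000 bp and 2.88% above 8000 bp.

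Changed loci often lay beside loci changed in the same direction. Neighbours here are directly adjacent loci, and a pair counts only where both were tested. The next neighbour of a locus higher in R2 was also higher in R2 in 20.1% of 1206 pairs, against 8.79% of all next neighbours, and was higher in R4 in 9.12%. For loci higher in R4 the next neighbour was also higher in R4 in 20.8% of 1506 pairs, against 10.9% of all next neighbours, and was higher in R2 in 6.51%. Runs of 3 or more such neighbours numbered 27 with 87 loci on the R2 side and 41 with 135 loci on the R4 side. Neighbours with similar sequence can share reads, which was not tested here.

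The first-ranked run on the R2 side held 4 loci on chromosome 4 between 23288619 and 23313440. Its outer member chr4:23288619-23291635 had 7.86 and 9.02 FPKM in R2, against 3.56 and 3.505 FPKM in R4. At the other members, chr4:23297932-23300064, chr4:23307529-23308662 and chr4:23311299-23313440, R2 averaged 7.72 ± 0.413, 11.4 ± 0.326 and 13.4 ± 0.0557 FPKM, against 0.199 ± 0.0462, 0.471 ± 0.0966 and 0.961 ± 0.426 FPKM in R4 (SD, n = 2 each). RF flesh was near R4 at the first and second of these, with 0.224 and 0.275 FPKM, and stood at 3.58 FPKM at the last. The steepest R2 run, chosen after its values were seen, was on chromosome 6 and held 3 short loci of 279, 267 and 231 bp. They are the abundant chr6:7824799-7825077, then chr6:7869239-7869505, and chr6:7887867-7888097 with 13.8 and 13.4 FPKM in R2, against 0.292 and 0.388 FPKM in R4. The last was listed at 0 in all RF and Mock flesh libraries.

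The first-ranked run on the R4 side held 5 loci on chromosome 8 between 23706780 and 23729974. Within it, chr8:23706780-23709589 had 2.25 and 1.65 FPKM in R2, against 13.8 and 12.1 FPKM in R4, and chr8:23713005-23713529 had 0.159 and 0.0249 FPKM in R2, against 7.09 FPKM in both R4 libraries. At chr8:23714145-23720904 R2 had 0.257 and 0.214 FPKM, against 4.04 and 4.19 FPKM in R4. RF flesh was not separated from R2 at these 3 loci, with means of 1.43, 0.0647 and 0.0472 FPKM. The last members, chr8:23722266-23726376 and chr8:23728621-23729974, had 45.8 ± 2.04 and 15.1 ± 0.823 FPKM in R2, against 111 ± 1.24 and 36.7 ± 0.0230 FPKM in R4, and 153 ± 5.30 and 68.6 ± 1.79 FPKM in RF flesh. The order thus changed along the run, since at the last 2 loci all 3 flesh libraries lay above both rinds. The steepest R4 run, again chosen after its values were seen, held 3 loci on chromosome 3. At chr3:3436273-3438537, chr3:3448241-3450224 and chr3:3460772-3462468 the R2 libraries were all under 1 FPKM, against 75.6, 62.0 and 52.2 FPKM in R4 and 171, 92.1 and 82.5 FPKM in RF flesh.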

How the data were processed

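The members and lists were chosen with earlier results of these data known. Per the labels' protocols, total RNA was extracted with Trizol and treated with DNase I, and libraries followed standard Illumina protocols. Tools listed in the submitters' processing notes are fastp, HISAT2 and SAMtools 1.5. Which tool computed FPKM, on which annotation, is not given in the sources used here. FPKM values were deposited by the authors, per the file headers, 1 file per library. At low values 0.197% of loci shared a ratio between the R2 libraries and 0.247% between the R4 libraries (tolerance 0.001 log2), so depth could not be derived. The fit used 12 libraries (R2_RF, R4_RF, R4_CT, RF and flesh CT of 20 DAP, 7 residual degrees of freedom) on log2(FPKM + 1) in limma 3.58.1 under R 4.3.3, with empirical Bayes both trended and robust. Fold changes on that scale understate changes of low loci. Loci needed 1 FPKM in at least 2 libraries. Adjusted p-values are Benjamini-Hochberg values over all loci of 1 contrast. For 50 loci of chromosome 1 (28189554 to 28726638) the values of CT replicate 1 correlated with its replicates at 0.708 at best and were left missing, and none of these loci is named. PD replicate 3 and the 1 DAP libraries were not used. The script was tested on simulated data. Named loci are the 2 largest changes per direction with replicates apart and a mean of 10 FPKM or more in the higher group, the next 2 by the same rule in each class, the 2 most abundant, and the first-ranked run (longest, then largest median change). The alternatives tried were the pseudocount, the filter, scaling, the replicate number as a term, single libraries left out, fewer libraries in the fit, empirical Bayes without trend and robustness, Mock as the flesh, and steps to flesh without the 2-fold limit. Sequences were not used here.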

Additional observations from a re-analysis of the deposited data

How the results depend on the processing

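The counts of calls between R2 and R4, with and without the 2-fold limit, stayed within 1.5 times of the reported ones under all alternatives run for them. The 40 named loci kept their direction and an adjusted p under 0.05 in the alternatives run for them, except that chr8:23714145-23720904 was not tested with the filter of 5 FPKM. Without R2_RF replicate 1 the log2 fold change of chr9:3750087-3751010 was 0.97, and without R2_RF replicate 2 that of chr4:23288619-23291635 was 0.97, both under the 2-fold limit. With a pseudocount of 0.1 the log2 fold changes of the 40 loci were up to 1.84 times as large, and above 1.5 times as large at 3 loci of the first-ranked runs. The labels do not pair libraries by number. The replicate block gave 1573 loci higher in R2 and 1867 higher in R4 at 2-fold. It kept an adjusted p under 0.05 at all 40 loci named by the rules and left every class within 1.5 times of its reported count. Same-numbered R2 and R4 libraries deviated together with a correlation of 0.0949 over 14519 loci, and R2 and R4_CT libraries with 0.145. Leaving out R2 or R4 libraries in turn gave 1465 to 1606 loci higher in R2 and 1809 to 1895 higher in R4. Leaving out each library of R2, R4 or RF in turn gave 5 to 8 loci higher in R2 with flesh between the rinds, and 5 to 7 with flesh beyond R2.

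The classes of order moved more, and the cause was not tested unless the setting itself shows it. With a pseudocount of 0.1, which stretches low values, flesh beyond R4 held 880 loci higher in R2 and 413 higher in R4, flesh between the rinds 28 and 75, and flesh beyond R2 17 and 118, while flesh not separated from R2 held 106 higher in R2. The 16-fold counts were then 108 and 186. With Mock as the flesh, loci higher in R2 numbered 26 with flesh between, 99 with flesh not separated from R2 and 20 beyond R2, and loci higher in R4 numbered 411 with flesh beyond R4 and 39 beyond R2. Without the 2-fold limit on steps to flesh, more loci are separated by construction. Loci higher in R2 then numbered 967 with flesh beyond R4, 379 not separated from R4, 173 between, 30 not separated from R2, 23 beyond R2 and 3 separated from neither. Loci higher in R4 numbered 740, 323, 516, 140, 147 and 5 in the same order. Read depth is unknown, so values under 1 FPKM carry an unknown counting error.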
